A study of Mus musculus with 40 samples.

Results

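The guanylate-binding proteins (GBPs) and the immunity-related GTPases (IRGs) are the 2 groups of interferon-inducible GTPases described here, in mouse macrophages grown from bone marrow (BMDMs) and exposed to lipopolysaccharide (LPS). They were chosen by name, with earlier results of these data known. There were 6 GBP genes (*Gbp2*, *Gbp3*, *Gbp5*, *Gbp6*, *Gbp7* and *Gbp9*) and 4 IRG genes (*Irgm1*, *Irgm2*, *Igtp* and *Iigp1*). All 10 had a row among the 27179 genes of the expression table, and all 10 passed the filter on low values in every comparison. RNA-seq libraries were made from wildtype (WT) BMDMs and from BMDMs of mice lacking *Cpeb4* in every cell (*Cpeb4*-/-), which encodes a cytoplasmic polyadenylation element-binding protein. The groups were 5 per genotype: untreated cells and cells given 10 ng/ml LPS for 1, 3, 6 or 9 hr. Each group held 4 libraries from 4 adult male mice, and the same 8 mice, all of mixed C57BL/6J and 129 background, gave all 40 libraries. BMDMs were differentiated in L-cell conditioned medium, which supplies M-CSF. Each of the 2 batches given in the labels held 2 mice of each genotype. No cage held mice of both genotypes, so cage and genotype cannot be told apart.

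LPS is sensed by Toll-like receptor 4, and macrophages answer with *Ifnb1*, which encodes interferon beta. The secreted interferon binds its receptor on the same and neighbouring cells, and the JAK kinases there activate STAT and IRF factors. GBPs and IRGs are among the genes most strongly switched on by this second wave and by interferon gamma. Their proteins gather on vacuoles and bacteria inside the cell: GBPs coat these membranes and help inflammasomes to sense their contents, and IRGs disrupt vacuoles. *Irgm1*, *Irgm2* and *Igtp* encode regulatory IRG proteins, which guard the cell's own membranes, whereas *Iigp1* encodes an effector IRG protein held inactive by them.

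The genes lie in clusters, with locations from the RefSeq annotation of GRCm38.p6 (mm10 coordinates). *Gbp5* (chr3:142496934-142522344), *Gbp7* (chr3:142530336-142550151), *Gbp3* (chr3:142560016-142573213) and *Gbp2* (chr3:142620663-142638008) are neighbours on chromosome 3. *Gbp9* (chr5:105076464-105110357) and *Gbp6* (chr5:105270702-105295871) lie in a cluster on chromosome 5. *Irgm1* (chr11:48865245-48871420), *Igtp* (chr11:58199556-58207592) and *Irgm2* (chr11:58214977-58222783) are on chromosome 11, the chromosome of *Cpeb4*, whose start is 17.0 Mb from *Irgm1* and 26.3 Mb from both *Igtp* and *Irgm2*. The 2 families hold near-identical copies, and how reads shared between genes were counted is not given in the sources used here, so a value may include reads of a close relative.

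Promoter sequence is shown because these genes moved together, and the letters searched are those that interferon-activated factors are known to bind. The interferon-stimulated response element (ISRE, searched as GAAA, any 2 bases and GAAA) is bound by IRF factors. The gamma-activated site (GAS, searched as TTCNNNGAA) is named for the response to interferon gamma. RefSeq windows of 300 bases were used, from 250 bases before to 50 after an annotated start. Those of 7 of the 10 genes were searched on both strands (*Gbp3* has 2 windows, and 1 of them held no match). No window was found for *Gbp6* and *Gbp9*, and *Iigp1* was left out of the search. An ISRE match was in the window of 7 of 7 genes and in 3.44% of all 32851 promoter windows. A GAS match was in 4 of 7 (*Gbp5*, *Gbp7*, *Irgm2* and *Igtp*) and in 8.3% of all windows, and both matches together in those 4 and in 0.454% of all windows. The 30-base stretches around the matches follow, each read 5′ to 3′ on the strand of its gene, with capitals marking the matched letters or their reverse complement.
Igtp, GAS then ISRE, chr11:58199506-58199535, plus strand: gccatTTCTAGGAActGAAACTGAAAgctg
Irgm2, GAS then ISRE, chr11:58214897-58214926, plus strand: gccatTTCCAGGAActGAAACTGAAAgctg
Irgm1, 2 overlapping ISREs, chr11:48871428-48871457, minus strand: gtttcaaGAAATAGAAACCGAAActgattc
Gbp3, 2 overlapping ISREs, chr3:142559992-142560021, plus strand: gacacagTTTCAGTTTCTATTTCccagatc
Gbp2, ISRE, chr3:142620594-142620623, plus strand: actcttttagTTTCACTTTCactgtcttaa
Gbp7, ISRE, chr3:142530273-142530302, plus strand: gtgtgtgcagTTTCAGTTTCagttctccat
Gbp7, 2 GAS matches, chr3:142530229-142530258, plus strand: tTTCCAGGAAaagcagaagcTTCTCAGAAa
Gbp5, ISRE, chr3:142496759-142496788, plus strand: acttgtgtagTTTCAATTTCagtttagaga
Gbp5, GAS near the start, chr3:142496871-142496900, plus strand: ctggccgttatTTCTCAGAAccaagcacag

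*Igtp* and *Irgm2* had the same arrangement, a GAS match followed after 2 bases by an ISRE match, and 29 of the 30 bases shown were identical. *Tgtp1* and *Tgtp2*, IRG genes outside the 10, also had a GAS match followed after 2 bases by an ISRE match. Of 9 other GBP and IRG genes whose windows were searched, 5 had an ISRE match and 3 a GAS match. Some other genes of the 2 families were not searched. *Gbp5* also had a GAS match at the far end of its window and was the only one of the 7 with a match to the NF-kB motif (searched as GGGA, any base and TTTCC, in 0.411% of all windows). *Gbp2* and *Irgm1* had an AP-1 match (TGANTCA, in 7.81% of all windows). A match is a run of letters and not a measured binding site.

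**Figure D1:**
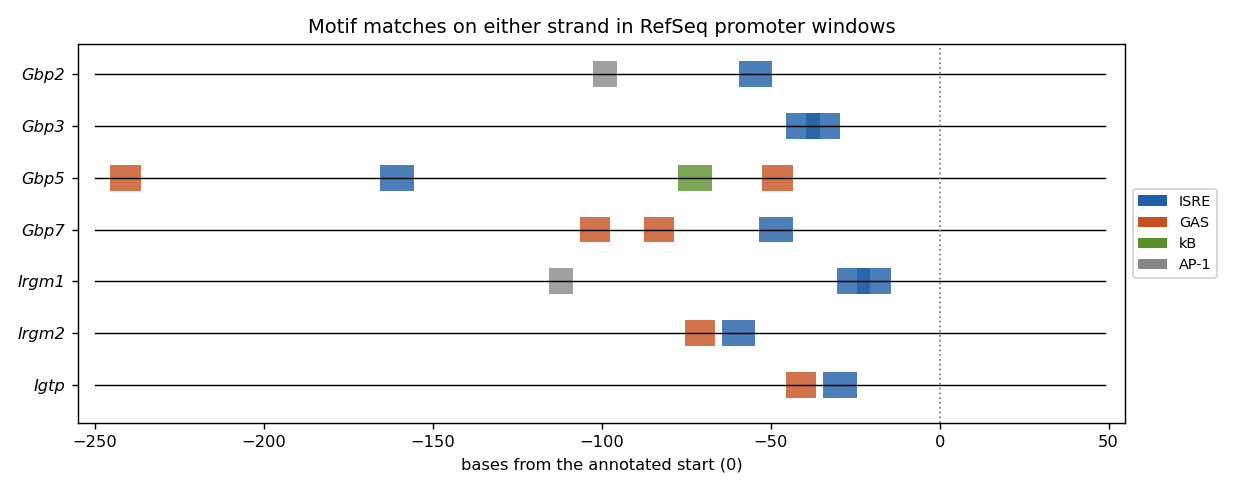
Motif matches in the promoter windows of 7 genes; the horizontal axis is the distance in bases from the annotated start (0), and each coloured block is 1 match on either strand. ISRE matches began between 165 and 24 bases before the start, and those of *Irgm1* and *Gbp3* overlapped each other.

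*Cpeb4* itself was examined first as a check of the genotype labels. At 6 hr the rlog values (regularized log values, on a log2 scale) were 10.09, 10.42, 10.62 and 10.67 in WT and 8.74, 8.87, 9.45 and 9.66 in *Cpeb4*-/- BMDMs, without overlap (difference −1.27 ± 0.19 SE, limma adjusted p = 0.0011). At the other 4 times the genotypes overlapped, and at 1 hr the means were 8.64 in WT and 9.01 in *Cpeb4*-/- BMDMs (adjusted p = 0.52). The value sums reads over the whole gene, so transcripts from outside the deleted part would still count, and it checks the labels only at 6 hr. All 8 macrophage markers looked at were expressed (*Adgre1*, *Csf1r*, *Cd68*, *Itgam*, *Lyz2*, *Mertk*, *Fcgr1* and *Spi1*). Of 5 natural killer cell markers, 0 were above the filter, and of 6 T cell markers only *Cd5* and *Lat* were. Also above it were 4 of 7 neutrophil markers (*S100a8*, *S100a9*, *Ngp* and *Camp*) and 3 of 5 dendritic cell markers (*Zbtb46*, *Xcr1* and *Clec9a*). The B cell marker *Cd79b* and the fibroblast marker *Dcn* were too. In *Cpeb4*-/- libraries the summed neutrophil markers reached at most 8.14 (log2 of the sum), against at least 18.60 for the macrophage markers. In bulk RNA, fewer cells of a type and less RNA per cell cannot be told apart.

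Untreated WT BMDMs already expressed all 10 genes. To compare genes with each other, the values were taken off the log scale and divided by the length of each gene's exons. On this per-kb scale *Gbp2* was highest in untreated WT cells (1303 ± 92.3 SD, n = 4), followed by *Igtp* (787 ± 60.7, 18.1% of the summed level of the 10 genes) and *Irgm1* (645 ± 45.2, 14.9%). *Gbp3* (444 to 520 per kb) and *Irgm2* (425 to 507 per kb) overlapped in their 4 libraries, so their order is not separated from the spread. *Iigp1* (52.6 to 73.0 per kb) and *Gbp6* (15.6 to 17.5 per kb) were lowest. After 6 hr of LPS *Gbp2* made up 44.3% of the sum in WT and 46.6% in *Cpeb4*-/- BMDMs, and *Gbp6* stayed the lowest.

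LPS raised every one of the 10 genes in both genotypes. In WT BMDMs at 6 hr the rise over untreated cells was between 2.57 and 4.72 on the log2 scale, with a median of 3.84, whereas the median of all 13103 genes tested was −0.020. All 10 passed the test as higher at 3, 6 and 9 hr in WT and in *Cpeb4*-/- BMDMs. Of all genes, 33.5%, 39.7% and 37% passed as higher at these times in WT, and 33.7%, 38.4% and 35.7% in *Cpeb4*-/- BMDMs. *Gbp6* rose most at 6 hr, from rlog 6.53, 6.61, 6.62 and 6.71 in untreated WT libraries to 11.25, 11.25, 11.30 and 11.57 (26.4-fold, adjusted p = 2.8e-31). *Iigp1*, the effector IRG, rose from 8.26, 8.36, 8.47 and 8.73 to 12.82, 12.87, 13.11 and 13.65 (25.2-fold, adjusted p = 5.8e-25). *Gbp5*, which promotes assembly of the NLRP3 inflammasome, rose from 10.82, 10.89, 10.91 and 10.93 to 15.21, 15.28, 15.34 and 15.40 (21.4-fold, adjusted p = 1e-34). In each of these 3 genes the lowest stimulated library was far above the highest untreated one. The regulatory *Irgm1* (6.03-fold) and *Irgm2* (5.94-fold) had the smallest rises of the 10 in WT, and *Gbp9* (7.97-fold) and *Igtp* (9.74-fold) the next smallest.

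The 10 genes did not start together. At 1 hr *Gbp2*, *Gbp3*, *Gbp5*, *Gbp6* and *Gbp7* passed as higher in both genotypes, *Irgm2* passed as lower, and the other 4 did not pass (37.7% of all genes passed in either direction in WT and 41.9% in *Cpeb4*-/- BMDMs). *Gbp5* led, from 10.82 to 10.93 untreated to 12.24, 12.36, 12.40 and 12.43 at 1 hr in WT (2.77-fold, adjusted p = 1.3e-19), and its 1 hr libraries were all above its untreated ones. *Irgm2* was at 10.38, 10.39, 10.44 and 10.45 in WT at 1 hr, against 10.62, 10.73, 10.77 and 10.87 untreated (1.26-fold lower, adjusted p = 2.3e-05). The upstream genes *Ifnb1* and *Irf1* had risen by 1 hr. *Ifnb1* went from a mean rlog of 3.64 to 8.34 at 1 hr in WT and was back to 5.39 at 6 hr. *Irf1*, which encodes an IRF factor that can bind ISREs, was 2.62 higher at 1 hr (adjusted p = 1.3e-30). Other STAT and IRF factors did not move alike at 1 hr in WT. *Irf3* passed as higher (0.46, limma adjusted p = 7e-07) and *Stat2* as lower (−0.37, limma adjusted p = 1.2e-06).

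The mean was highest at 6 hr for 10 of 10 genes in WT (for 8 of 10 with quantile normalization, under which *Irgm1* and *Irgm2* were higher at 3 hr), but the shape of the rise differed between genes. *Irgm2*, *Gbp5* and *Irgm1* had reached 96.6%, 93.4% and 88.0% of their 6 hr rise (log2) by 3 hr in WT, whereas *Gbp9* and *Gbp6* had reached 53.4% and 58.8%. From 3 to 6 hr 9 genes rose further in WT (34.8% of all genes passed as higher), while *Irgm2* differed by 0.09 ± 0.06 SE (adjusted p = 0.2). With quantile normalization 7 genes rose further in WT, *Irgm2* passed as lower (−0.15, adjusted p = 0.016), and *Gbp5* and *Irgm1* did not pass. In *Cpeb4*-/- BMDMs 8 rose further (7 with quantile normalization), *Gbp5* differed by 0.01 ± 0.07 SE (adjusted p = 0.89), and *Irgm2* was lower at 6 than at 3 hr by −0.14 (adjusted p = 0.036; 62.9% of all genes passed in either direction). With quantile normalization *Gbp5* (−0.18, adjusted p = 0.018) and *Irgm1* (−0.13, adjusted p = 0.042) also passed as lower at this step in *Cpeb4*-/- BMDMs. Between 6 and 9 hr all 10 fell in both genotypes (29.5% of all genes passed as lower in WT and 26.6% in *Cpeb4*-/- BMDMs). *Iigp1* dropped by 1.71 on the log2 scale in WT and *Gbp2* by 0.52, so that *Gbp2* still held 88.1% of its peak rise at 9 hr and *Iigp1* 63.3%. In all of the 4 WT and 4 *Cpeb4*-/- mice each of the 10 genes was lower at 9 than at 6 hr.

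**Figure D2:**
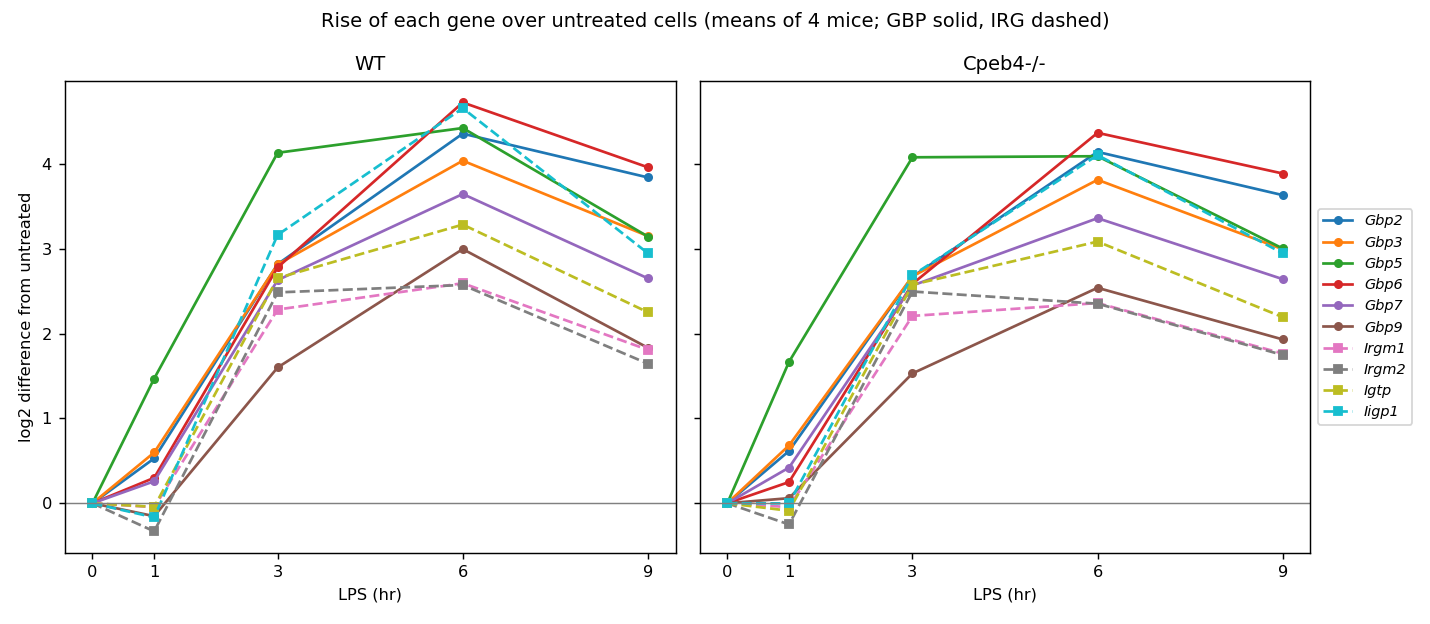
Mean rise of each gene over untreated cells (log2, vertical axis) against hours of LPS (horizontal axis) in WT (left) and *Cpeb4*-/- BMDMs (right), 4 mice a genotype; GBP genes are solid lines with circles and IRG genes dashed lines with squares. *Gbp5* rises most at 1 and 3 hr, *Irgm2* is below untreated at 1 hr, and in both genotypes all 10 genes are lower at 9 than at 6 hr.

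The genotypes were then compared at each time. Before stimulation 0 of 10 genes passed the test in limma (1.31% of all genes in either direction), with 3 at an unadjusted p under 0.05. *Iigp1* was at 8.02, 8.19, 8.23 and 8.23 in *Cpeb4*-/- and 8.26, 8.36, 8.47 and 8.73 in WT BMDMs, without overlap (−0.28 ± 0.10 SE, adjusted p = 0.18). It was the one gene of the 10 whose untreated libraries did not overlap (5.04% of all genes had every *Cpeb4*-/- library below every WT library). At 1 hr again 0 of 10 passed (1.91% of all genes), with 4 at an unadjusted p under 0.05. Low unadjusted p-values were common among all genes at 1 hr: that of *Irgm1* was 0.021 in limma, with an adjusted p of 0.1. The percentages are for adjusted p, and the share of all genes at an unadjusted p under 0.05 is not given for any comparison. *Igtp* passed as lower at 1 hr with the mouse as a replicate block (−0.21, adjusted p = 0.013), as did 15.6% of all genes. *Gbp7* was at 10.51 to 10.55 in *Cpeb4*-/- and 10.20 to 10.42 in WT BMDMs (0.19 ± 0.06 SE, adjusted p = 0.084), and *Gbp5* at 12.47 to 12.55 and 12.24 to 12.43 (0.16 ± 0.05 SE, adjusted p = 0.087). These 2 genes were the ones whose *Cpeb4*-/- libraries were all above WT at 1 hr (7.55% of all genes).

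At 3 hr *Iigp1* passed as lower in *Cpeb4*-/- BMDMs, 1 of 10 (1.87% of all genes passed as lower). Its libraries were at 10.39, 10.83, 10.97 and 11.23 in *Cpeb4*-/- and at 11.35, 11.61, 11.65 and 11.86 in WT BMDMs (1.70-fold lower, −0.76 ± 0.16 SE, adjusted p = 0.033). The groups did not overlap (6.58% of all genes had all *Cpeb4*-/- libraries below WT), and the difference was −1.05 in batch 1 and −0.47 in batch 2. The call was lost when WT mouse 25 or 87 or *Cpeb4*-/- mouse 2, 3 or 62 was left out, and without WT mouse 88 there were 2 calls. In 1 fit of all 40 libraries with the mouse as a replicate block 3 of 10 passed as lower (5.47% of all genes did), *Iigp1*, *Igtp* (adjusted p = 0.0089) and *Irgm1* (adjusted p = 0.016). The other 9 genes had lower means in *Cpeb4*-/- BMDMs, by up to −0.27 (*Gbp6*, adjusted p = 0.13).

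At 6 hr, the peak, all 10 genes passed as lower in *Cpeb4*-/- BMDMs, by 1.17-fold (*Gbp2*) to 1.79-fold (*Iigp1*). Their median difference was −0.37 on the log2 scale, against −0.015 for all 13039 genes, of which 16.3% passed in either direction and 9.92% as lower. Of all genes 835 passed as higher and 1294 as lower, and with quantile normalization 1025 and 995, under which 8 of the 10 genes passed, all as lower. That scaling brought *Gbp2* to −0.10 (adjusted p = 0.29), *Gbp7* to −0.16 (adjusted p = 0.13), *Gbp3* to −0.16 and *Gbp5* to −0.23. For 9 of the 10 every *Cpeb4*-/- library was below every WT library (12% of all genes), and all 10 were lower in both batches, with medians of −0.46 in batch 1 and −0.29 in batch 2.

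Among the IRGs, the effector *Iigp1* was at 12.12, 12.14, 12.19 and 12.64 in *Cpeb4*-/- and at 12.82, 12.87, 13.11 and 13.65 in WT BMDMs at 6 hr (−0.84 ± 0.16 SE, adjusted p = 0.005). The groups did not overlap, and 1 *Cpeb4*-/- library (mouse 55) was well above the other 3. The regulatory *Irgm2* was at 12.80, 12.91, 12.92 and 13.07 against 13.21, 13.30, 13.30 and 13.45 (−0.39 ± 0.06 SE, adjusted p = 0.0016). *Igtp* was at 13.44, 13.52, 13.58 and 13.67 against 13.83, 13.89, 13.92 and 14.02 (−0.37 ± 0.06 SE, adjusted p = 0.0014). *Irgm1* was at 13.94, 14.07, 14.08 and 14.26 against 14.38, 14.39, 14.45 and 14.63 (−0.37 ± 0.07 SE, adjusted p = 0.0047). The 3 regulatory genes thus differed by similar amounts, and in none of them did the groups overlap.

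Among the GBPs, *Gbp9* differed most, at 11.29, 11.33, 11.56 and 11.89 in *Cpeb4*-/- against 11.91, 11.96, 12.24 and 12.26 in WT BMDMs (1.49-fold lower, −0.58 ± 0.12 SE, adjusted p = 0.0077). The highest *Cpeb4*-/- library reached almost to the lowest WT library. *Gbp6*, the gene with the lowest level per kb, was at 10.70, 10.83, 10.997 and 11.11 against 11.25, 11.25, 11.30 and 11.57 (−0.43 ± 0.09 SE, adjusted p = 0.0076). *Gbp5* was at 14.75, 14.90, 15.00 and 15.12 against 15.21, 15.28, 15.34 and 15.40 (−0.36 ± 0.07 SE, adjusted p = 0.0066). Neither gene overlapped between the genotypes.

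The remaining GBPs of chromosome 3 differed least. *Gbp3* was at 14.22, 14.32, 14.39 and 14.54 against 14.58, 14.59, 14.64 and 14.74 (−0.27 ± 0.06 SE, adjusted p = 0.014). *Gbp2*, the most abundant of the 10 and a coat protein of pathogen vacuoles, was at 15.68, 15.77, 15.87 and 15.91 against 15.93, 15.95, 16.06 and 16.19 (−0.22 ± 0.07 SE, adjusted p = 0.047). *Gbp7* was at 13.24, 13.41, 13.54 and 13.70 against 13.66, 13.70, 13.76 and 13.78 (−0.25 ± 0.08 SE, adjusted p = 0.046), and it alone overlapped. With no filter on low values the differences were the same and 3 of the 10 passed (*Irgm1*, *Irgm2* and *Igtp*; 3.62% of all genes passed as lower). With batch as a covariate 8 of 10 passed (8.4% of all genes did as lower), and 8 of 10 without the variance trend; *Gbp2* and *Gbp7* missed the threshold in both. The calls of *Gbp2* and *Gbp7* were the ones lost when single mice were left out, which left 8 to 10 calls, and that of *Gbp7* was lost with the mouse as a replicate block (adjusted p = 0.053).

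At 9 hr 2 of 10 genes passed as lower (3.22% of all genes did). *Igtp* was at 12.59, 12.66, 12.67 and 12.72 in *Cpeb4*-/- against 12.83, 12.87, 12.90 and 12.94 in WT BMDMs (−0.22 ± 0.05 SE, adjusted p = 0.021), and *Irgm1* at 13.43, 13.45, 13.54 and 13.56 against 13.63, 13.67, 13.69 and 13.72 (−0.18 ± 0.05 SE, adjusted p = 0.047). *Gbp2* was the third gene whose libraries did not overlap (−0.22 ± 0.07 SE, adjusted p = 0.079; 8.51% of all genes had all *Cpeb4*-/- libraries below WT). *Gbp9* and *Gbp7*, lower at 6 hr, differed by −0.02 ± 0.15 and 0.02 ± 0.11 SE at 9 hr, and the *Cpeb4*-/- libraries of *Gbp9* spread from 10.39 to 11.20 against 10.86 to 11.05 in WT. Without WT mouse 69, 87 or 88 or *Cpeb4*-/- mouse 3 or 62 there were 0 calls at 9 hr, and without WT mouse 25 or *Cpeb4*-/- mouse 55 there was 1. With the mouse as a replicate block 4 passed as lower (8.72% of all genes did), these 2 with *Gbp2* (adjusted p = 0.011) and *Gbp3* (adjusted p = 0.029).

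**Figure D3:**
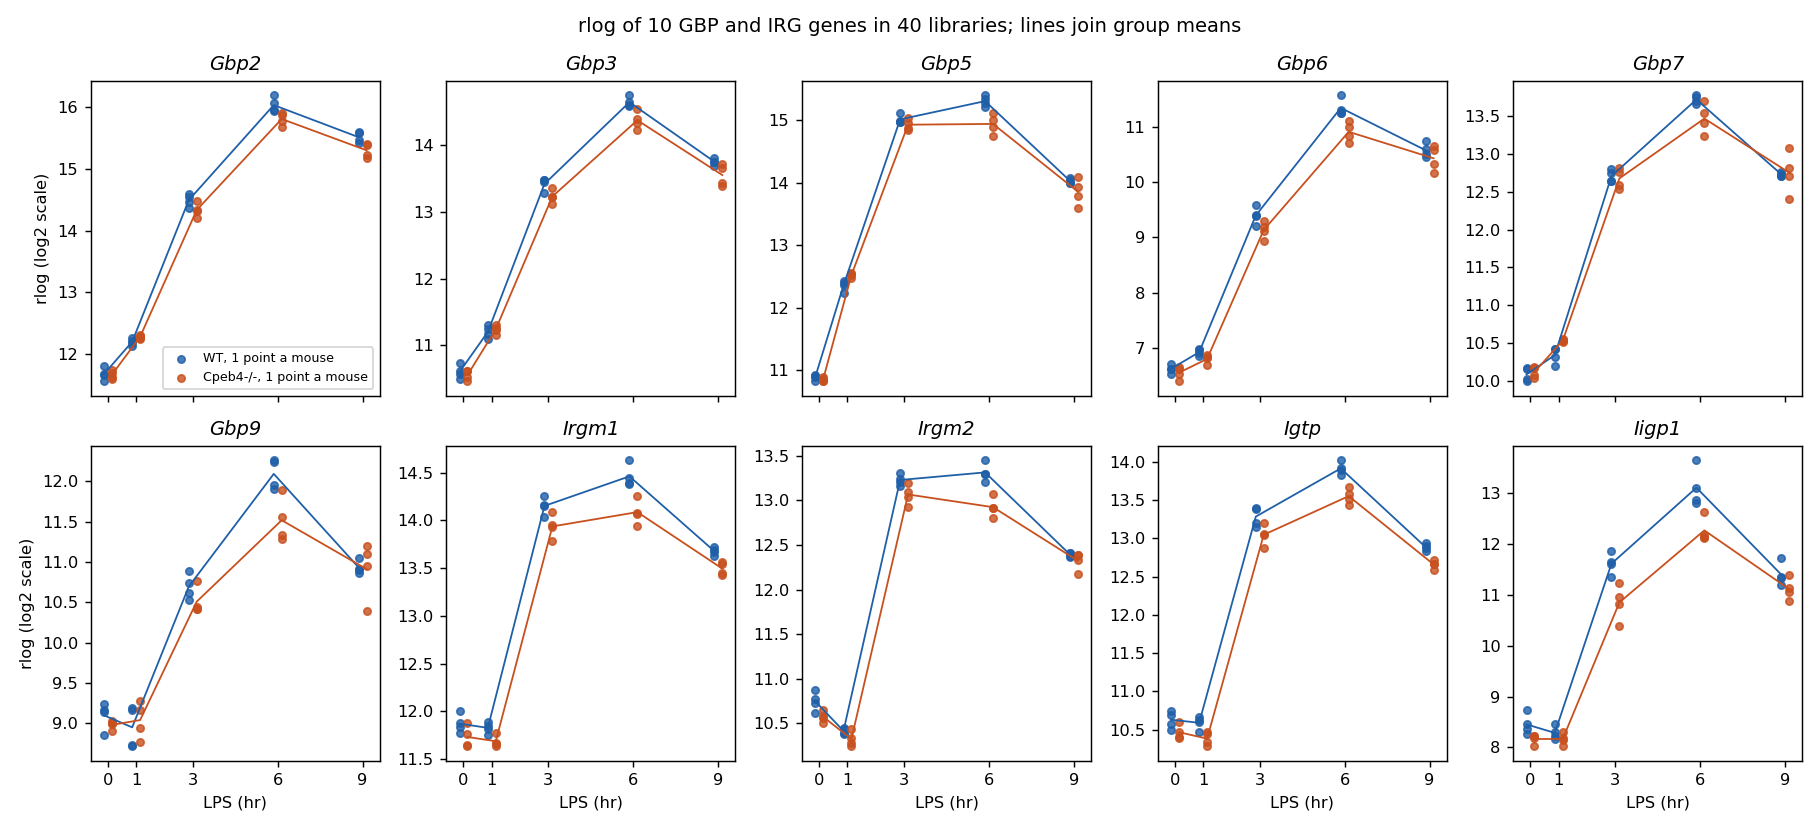
rlog (log2 scale, vertical axis) of the 10 genes against hours of LPS, with 1 point for each of the 40 libraries, offset sideways by genotype, and lines joining the group means. The *Cpeb4*-/- points sit below the WT points at 6 hr in every panel except that of *Gbp7*, where they overlap.

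**Figure D4:**
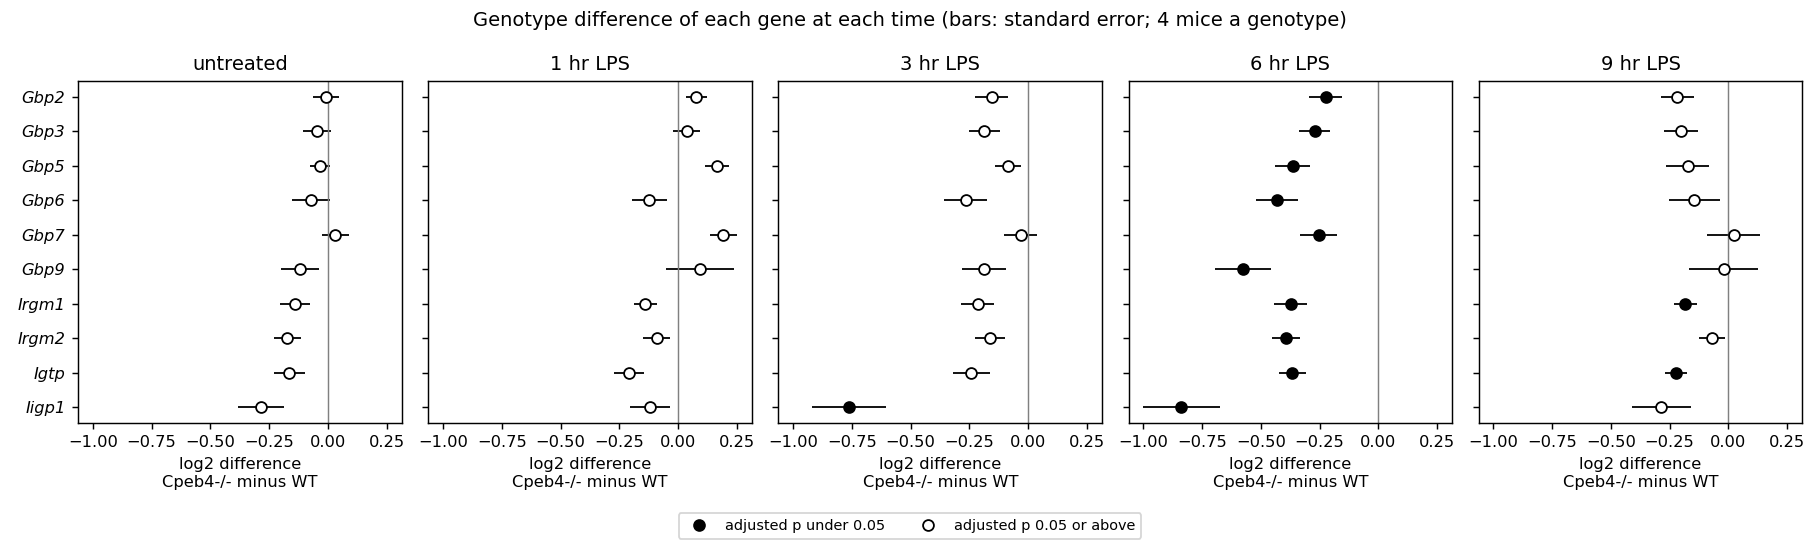
log2 difference of *Cpeb4*-/- minus WT for each gene at each time, with standard errors from limma (4 mice a genotype); filled points passed at an adjusted p under 0.05. All 10 points are filled at 6 hr, 1 at 3 hr, 2 at 9 hr and none in untreated cells or at 1 hr.

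Whether the genotype difference at 6 hr was larger than that before stimulation was tested in 1 model of all 40 libraries. All 10 genes differed more at 6 than at 0 hr, by −0.20 (*Igtp*) to −0.55 (*Iigp1*). All 10 had an unadjusted p under 0.05 in limma. That count cannot be set against all genes, whose share at this level is not given. In limma 0 of 10 passed after adjustment (adjusted p from 0.054 for *Gbp5* to 0.29 for *Igtp*), and 2.94% of all genes did. With the mouse as a replicate block, which compares libraries within each mouse, 4 of 10 passed and 7.88% of all genes did: *Iigp1* (−0.55 ± 0.13 SE, adjusted p = 0.0091), *Irgm1* (−0.23 ± 0.06 SE, adjusted p = 0.02), *Gbp5* (−0.33 ± 0.09 SE, adjusted p = 0.023) and *Irgm2* (−0.22 ± 0.06 SE, adjusted p = 0.026). For the differences at 1, 3 and 9 hr against that at 0 hr, 0 of 10 passed in limma (0.00763%, 0.206% and 1.76% of all genes), with and without the block, and 0, 1 and 1 genes had an unadjusted p under 0.05.

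Single mice were on the same side of their group mean in all 10 genes at some times, in some cases by small amounts. In untreated cells WT mouse 88 (mean 0.11) and *Cpeb4*-/- mouse 2 (mean 0.04) were above their group means in 10 of 10 genes, and *Cpeb4*-/- mouse 3 below (mean −0.09). *Cpeb4*-/- mouse 55 was above its group mean in 10 of 10 genes at 3, 6 and 9 hr, by a mean of 0.17, 0.21 and 0.12. *Cpeb4*-/- mouse 62 was below its group mean in 10 of 10 genes at 6 hr (mean −0.17), and WT mouse 88 above it in 10 of 10 (mean 0.17). At 3 hr *Cpeb4*-/- mouse 3 (mean −0.17) and WT mouse 69 (mean −0.13) were below their group means in 10 of 10 genes. WT mouse 25, from the same batch as mouse 88, was below it in 10 of 10 genes at 6 hr (mean −0.11).

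The other genes of the 2 families and of the interferon pathway give the setting of these values. Of the other GBP genes 1 of 4 tested passed as lower at 6 hr, *Gbp4* (−0.68 ± 0.17 SE, adjusted p = 0.017). Of the other IRG genes 6 of 10 passed as lower and none as higher, led by *Tgtp1* (−0.91, adjusted p = 0.0066), *F830016B08Rik* (−0.84, adjusted p = 0.006) and *Gm4951* (−0.72, adjusted p = 0.0025). *F830016B08Rik* passed as lower before stimulation too (−0.65, adjusted p = 0.046). The untreated means of *Gm4951* were 7.46 in *Cpeb4*-/- and 8.02 in WT BMDMs, and those of *Tgtp1* 2.41 and 2.43. Neither gene passed before stimulation. Of the other interferon-inducible large GTPases 2 of 4 passed as lower, *Mx2* (−0.32, adjusted p = 0.019) and *Mx1* (−0.32, adjusted p = 0.047), whose proteins block viruses. Dynamin-superfamily GTPases outside the interferon response, such as the mitochondrial fusion protein gene *Opa1*, had 0 of 10 pass in limma, with a median of −0.05 and 1 at an unadjusted p under 0.05, *Dnm2* (−0.10, adjusted p = 0.077).

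Upstream, *Ifnb1* was the one ligand of 4 above the filter. It was at 7.34, 7.36, 7.88 and 7.92 in *Cpeb4*-/- and at 7.73, 8.09, 8.74 and 8.80 in WT BMDMs at 1 hr (−0.71 ± 0.25 SE, adjusted p = 0.096). At 3 hr it was at 6.83, 6.90, 6.96 and 7.32 against 7.48, 7.53, 7.65 and 7.99, without overlap, and passed as lower (−0.66 ± 0.13 SE, adjusted p = 0.031). At 6 hr the groups overlapped, and the difference was 0.10 ± 0.18 SE (adjusted p = 0.77). Of 7 receptor and kinase genes *Tyk2*, a kinase of the interferon alpha and beta receptor, passed as lower at 6 hr (−0.41, adjusted p = 0.0014) and *Ifngr1*, a chain of the interferon gamma receptor, as higher (0.18, adjusted p = 0.017).

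Of 9 STAT and IRF factors 4 passed as lower at 6 hr and none as higher, led by *Batf2* (−0.49, adjusted p = 0.00092) and *Irf7* (−0.22, adjusted p = 0.016). *Irf1* did not pass (−0.15, adjusted p = 0.11). Of 7 repressors of interferon signalling 3 passed as lower, led by *Usp18*, which dampens the interferon receptor (−0.45, adjusted p = 0.00059). *Socs1*, an inhibitor of JAK kinases, differed by 0.10 ± 0.06 SE at 6 hr (adjusted p = 0.32) and passed as higher at 9 hr (0.32 ± 0.08 SE, adjusted p = 0.028). At 3 hr its mean was lower, 12.09 in *Cpeb4*-/- against 12.47 in WT BMDMs, and it did not pass. Of 10 autophagy conjugation genes, whose products place GBPs and IRGs on membranes, 2 passed as lower and 1 as higher at 6 hr, with *Map1lc3a* differing most (−0.25, adjusted p = 0.0074). Before stimulation the means of *Map1lc3a* were 8.96 in *Cpeb4*-/- and 9.30 in WT BMDMs, and it did not pass. Of 12 genes whose products act with GBPs and IRGs at inflammasomes and vacuoles, 3 passed as lower, led by *Trim21* (−0.41, adjusted p = 0.0048). One passed as higher, *Casp4*, the sensor of cytosolic LPS (0.84 ± 0.07 SE, adjusted p = 4.7e-05), and it was also higher before stimulation (0.81 ± 0.06 SE, adjusted p = 5.6e-05).

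Macrophage markers moved with the genotype as well. At 6 hr 5 of 8 passed as lower and none as higher, with a median of −0.25, and their summed level (log2 of the sum) was 18.79 to 19.02 in *Cpeb4*-/- against 19.10 to 19.22 in WT BMDMs. In untreated cells the sum was 18.60 to 18.87 against 18.92 to 19.25, and 0 of 8 markers passed in limma, with a median of −0.10. *Lyz2*, the lysozyme gene, made up 49.6% to 58.7% of the sum at 6 hr and 57.4% to 71.2% in untreated cells. Without it the sums at 6 hr were still mostly lower in *Cpeb4*-/- BMDMs and overlapped only narrowly, at 17.81 to 17.950 against 17.949 to 17.99 in WT. Those of untreated cells without it overlapped, at 17.34 to 17.41 in *Cpeb4*-/- against 17.38 to 17.49 in WT BMDMs. The part of the macrophage markers in the result was not tested. Between the start of *Cpeb4* and the end of *Irgm2* on chromosome 11 (chr11:31870104-58222783), 25 of 130 genes that are not among the 10 passed at 6 hr (19.2%, against 16.3% of all genes) and 0 of 128 in untreated cells. These genes include *Cpeb4* itself and other IRG genes such as *Tgtp1*, both of which passed as lower at 6 hr.

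**Figure D5:**
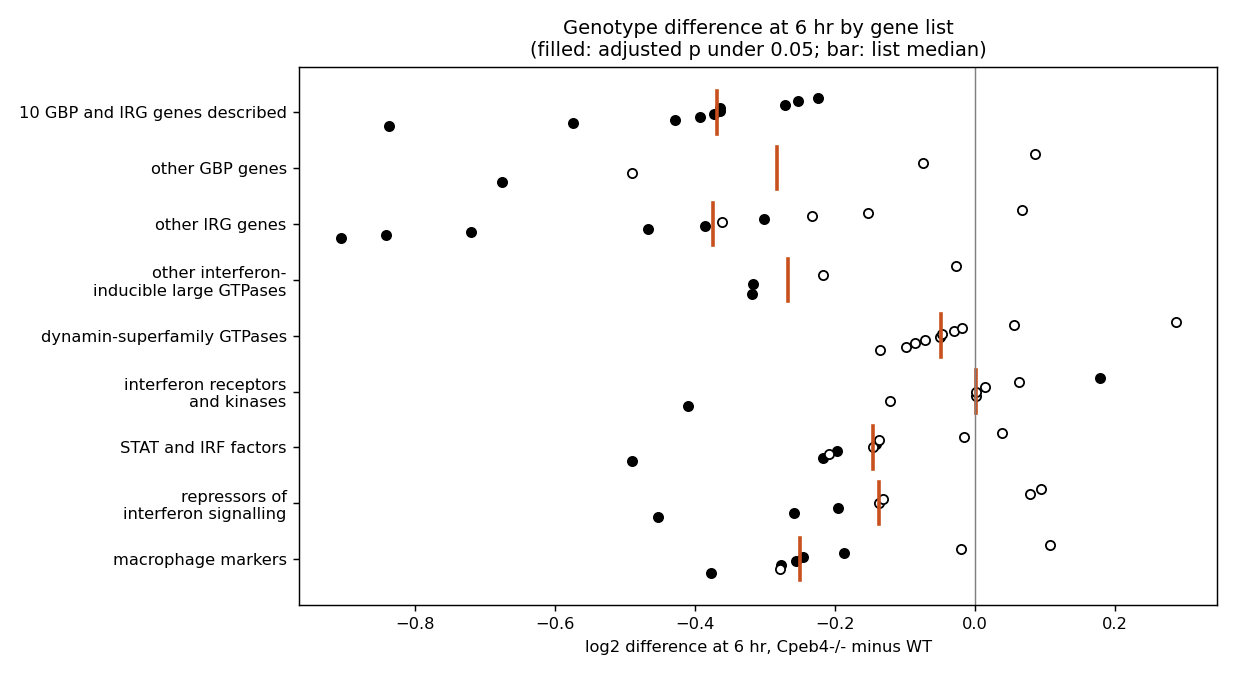
log2 difference of *Cpeb4*-/- minus WT at 6 hr (horizontal axis) for each gene of 9 lists (rows); filled points passed at an adjusted p under 0.05 and the upright bar is the median of the list. The 10 genes described here have a median of −0.37, the dynamin-superfamily GTPases one of −0.05 and the macrophage markers one of −0.25.

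Finally, the time course of the 10 genes was compared with that of all others. Group means of each of the 10 genes were scaled to z-scores, and their mean in each of the 10 groups was correlated with the group means of 13093 genes, as a description over groups that share mice. The 10 most alike were *Adar* (r = 0.999), *Batf2* (r = 0.999), *Ifit2*, *Usp18*, *Ms4a4d*, *Znfx1*, *Naa25*, *Kalrn*, *Rnf114* and *Ifi47* (r = 0.996). In total 648 genes had an r of at least 0.95. Against the same mean of the other 9 genes, *Gbp7* followed the others most closely (r = 0.997) and *Gbp5*, with its early rise, least (r = 0.932). *Ifi47*, an IRG gene, was at a mean rlog of 14.85 in WT and 14.69 in *Cpeb4*-/- BMDMs at 6 hr (adjusted p = 0.1).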

How the data were processed

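RNA was taken from BMDMs of 4 WT and 4 *Cpeb4*-/- mice at 5 times, and poly(A) libraries were sequenced. The authors aligned reads to mm10 with STAR 2.3.0e, counted them per gene with featureCounts and transformed the counts with rlog in DESeq2. What they deposited is thus a log2 value per gene and library, adjusted for library size, in which genes with few reads are drawn toward their mean. Counts and sequencing depth were not used here, so no interval from read counts is given. The table held 0 columns of no sample and 0 pairs of libraries with identical values. Replicate libraries correlated at 0.992 to 0.998.

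Groups, mouse numbers, batches and cages came from the labels. Libraries of 1 mouse carry the same replicate number at every time. This pairing was checked after removal of group means: 68 of 80 same-mouse pairs correlated above 0.1 (median 0.29, lowest −0.19), against a median of −0.09 between mice.

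Genotypes were compared at each time with limma 3.58.1 in R 4.3.3 (eBayes with trend, two-sided), keeping genes whose mean rlog reached 2.32 (log2 of 5). LPS effects and the change of the genotype difference were fitted over all 40 libraries. P-values were adjusted over all genes by the Benjamini-Hochberg method, with a threshold of 0.05. The fits were tested on simulated data. Exact permutation of 4 against 4 libraries cannot go below p = 0.029. A fold is 2 to the power of the rlog difference. Exon lengths came from GENCODE, and promoters and locations from RefSeq (GRCm38.p6).

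The 10 genes and the other gene lists were chosen with earlier results of these data known. All 10 genes are named, with up to 4 genes per other list (largest difference), *Ifnb1*, *Irf1*, *Socs1* and *Cpeb4*, and the 10 genes most alike in time course. One further gene under this rule is not reported here. Alternatives were other filters, variance models, scalings, batch as a covariate, a replicate block, single batches, the untransformed scale and leaving out each mouse.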

Additional observations from a re-analysis of the deposited data

Results flagged for a closer look

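In 5 of the 100 groups of 4 libraries (10 genes in 10 groups), 1 library was far from the other 3 by Dixon's ratio, and chance alone gives about 1 in 20. *Gbp3* was low in WT mouse 69 at 3 hr (13.28, the others 13.44 to 13.47). *Gbp5* was high in WT mouse 88 at 3 hr (15.11, the others 14.98 to 14.99), and *Gbp6* was high in the same mouse at 6 hr (11.57, the others 11.25 to 11.30). *Gbp9* was high in *Cpeb4*-/- mouse 55 at 3 hr (10.76, the others 10.41 to 10.44), and *Iigp1* was high in that mouse at 6 hr (12.64, the others 12.12 to 12.19).

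For 4 genes the genotype difference at 6 hr was larger than that in untreated cells when the mouse was a replicate block: *Iigp1* (−0.55), *Gbp5* (−0.33), *Irgm1* (−0.23) and *Irgm2* (−0.22). Without the block none of the 10 passed in limma.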

How the results depend on the processing

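In the comparison of genotypes at 6 hr all 10 genes stayed lower in *Cpeb4*-/- BMDMs under each of the 17 alternatives, and 3 passed with no filter on low values. The number passing at 1 hr was 1 with all 40 libraries in 1 fit, with or without the replicate block, and 0 to 2 without single mice. At 3 hr it was 0 with no filter, without the variance trend and with batch as a covariate, 3 in both fits of all 40 libraries, and 0 to 2 without single mice. At 9 hr it was 1 with no filter, without the trend and with quantile normalization, 4 in both fits of all 40 libraries, and 0 to 2 without single mice. For the change of the genotype difference from 0 to 6 hr the number passing was 1 with a mean rlog of at least 5, 1 with median centring, 4 with the replicate block, and 0 to 1 without single mice (1 without *Cpeb4*-/- mouse 55). The block moved no other count of calls by over 1.5 times. The causes were not tested.

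Most directions that turned were of differences that had not passed in limma. The exception was *Irgm1* for 6 against 3 hr. It had passed as higher by 0.31 in WT (adjusted p = 9.8e-05) and by 0.15 in *Cpeb4*-/- BMDMs (adjusted p = 0.044). With quantile normalization, *Gbp5* (0.0012) and *Gbp7* (0.0087) turned for *Cpeb4*-/- minus WT at 3 hr. For 6 against 3 hr, the same scaling turned *Irgm1* (−0.0014) and *Irgm2* (−0.15) in WT. It also turned *Gbp5* (−0.18) and *Irgm1* (−0.13) in *Cpeb4*-/- BMDMs. *Iigp1* at 1 hr in *Cpeb4*-/- BMDMs turned to 0.026 with quantile normalization and 0.014 with median centring. For the change of the genotype difference from 0 hr, *Irgm1* at 1 hr turned to −0.014 with quantile normalization and −0.0025 with median centring. At 3 hr *Gbp5* turned to 0.053 with quantile normalization and *Irgm2* to −0.0097 with median centring. At 9 hr *Gbp7* (0.037), *Irgm1* (0.013), *Igtp* (0.0067) and *Iigp1* (0.051) turned with quantile normalization.

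Without single mice, *Cpeb4*-/- minus WT ranged from −0.048 to 0.035 for *Gbp2* at 0 hr, from −0.078 to 0.015 for *Gbp7* at 3 hr, from −0.085 to 0.14 for *Gbp7* at 9 hr and from −0.12 to 0.15 for *Gbp9* at 9 hr. In *Cpeb4*-/- BMDMs the change at 1 hr ranged from −0.017 to 0.16 for *Gbp9* and from −0.029 to 0.027 for *Iigp1*, and that from 3 to 6 hr from −0.033 to 0.063 for *Gbp5*. The change of the genotype difference from 0 hr ranged from −0.035 to 0.022 for *Irgm1* at 1 hr and from −0.0081 to 0.034 for *Irgm2* at 3 hr. At 9 hr it ranged from −0.20 to 0.054 for *Gbp6*, from −0.145 to 0.13 for *Gbp7*, from −0.025 to 0.28 for *Gbp9*, from −0.094 to 0.0034 for *Igtp* and from −0.077 to 0.099 for *Iigp1*.

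Median centring moved the median of all genes at 6 hr of LPS from −0.020 to 0.144 in WT and from −0.019 to 0.135 in *Cpeb4*-/- BMDMs. Read counts were not used, so what depth limits is unknown, and the rlog transformation understates differences of genes with few reads, such as *Gbp6* in untreated cells.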
